A study of Mus musculus with 6 samples.

Results

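Among the transcription factors that give a limb its position and type, 9 genes outside the Hox clusters were examined in expanded mouse chondrocytes: Pitx1, Tbx4, Tbx5, Tbx15, Tbx18, Shox2, Meis1, Meis2 and Msx1. They were chosen by name, and all 9 were found among the 35976 gene symbols of the count table. The cells were embryonic chondrocytes, the matrix-producing cells of cartilage, from the hind limb articular cartilage of C57BL/6 x 129S4/SvJae mouse embryos at day 18.5. All were expanded in monolayer over 16 population doublings with doxycycline at 2 µg/ml, which induced a histone H3.3 transgene in both groups. In the H3K9M group (replicates 1, 3 and 5) that transgene carries methionine in place of lysine 9, and the genotype label describes H3K9 methylation as suppressed. In the H3WT control group (replicates 1, 2 and 4) the induced transgene is wild-type H3.3. There were therefore 3 libraries of polyadenylated RNA per group, and both groups carried an induced transgene and the drug. The labels do not say which promoter drives the transgene or whether libraries of a group came from separate embryos, so p-values measure the spread between these libraries, which may be technical.

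In the embryo, Pitx1 and Tbx4 are known as hind limb genes and Tbx5 as the fore limb paralog of Tbx4. Meis1 and Meis2 mark the proximal limb and respond to retinoic acid there, Shox2 acts in the proximal skeletal elements, Tbx15 and Tbx18 act in the shoulder and pelvic girdles and limb mesenchyme, and Msx1 is a target of bone morphogenetic proteins in undifferentiated mesenchyme. Methylation of H3 lysine 9 marks silenced chromatin, and the comparison addresses which transcripts differ in expanded chondrocytes when it is suppressed.

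Total counts were 15113675 to 19606082 per library, and no 2 libraries of a group were a repeat of each other, since counts within a group differed by 22.6 to 103 times sampling variance (chi-square per degree of freedom). Cartilage was the labelled source, and of its 12 listed markers 10 had counts under those symbols, with Col2a1 at 4913 CPM or more in every library (CPM, a count relative to the library total, here scaled between libraries by the TMM method). Fibroblast markers were also abundant, with Col1a1 at 3685 to 18928 CPM. It was lowest in H3WT replicate 2 (3685) and H3K9M replicate 3 (4962), and at 11718 CPM or more in every other library. On the first principal component of all genes, which held 35.5% of the variance, H3K9M replicate 3 (51.0) and H3WT replicate 2 (49.1) stood together, far from H3WT replicates 1 (-56.2) and 4 (-51.5). In bulk RNA, fewer cells that express a gene and less RNA per cell cannot be told apart.

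All 9 genes were transcribed, at levels that spanned more than the differences between the groups. Per kilobase of the longest annotated transcript, Pitx1 was highest at 106.7 ± 16.1 CPM per kilobase (SD, n = 6 libraries), followed by Tbx15 at 56.7 ± 10.1 and Shox2 at 20.6 ± 4.30. Tbx4 stood at 16.8 ± 2.10, Tbx18 at 12.5 ± 3.62 and Meis2 at 6.25 ± 1.28 CPM per kilobase. Tbx5 had 4.33 ± 0.845, Meis1 1.19 ± 0.469 and Msx1 0.807 ± 0.497 CPM per kilobase. Pitx1 lay above Tbx15 in each of the 6 libraries without overlap of their ranges, as did Tbx15 above Shox2 and Tbx5 above Meis1. From Shox2 through Tbx4, Tbx18 and Meis2 to Tbx5 the range of each gene overlapped that of the next, as did those of Meis1 and Msx1. In total CPM, without division by length, Pitx1 exceeded 95.6% of the 13761 tested genes in mean level and Tbx15 93.9%, against 10.6% for Msx1.

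**Figure D1:**
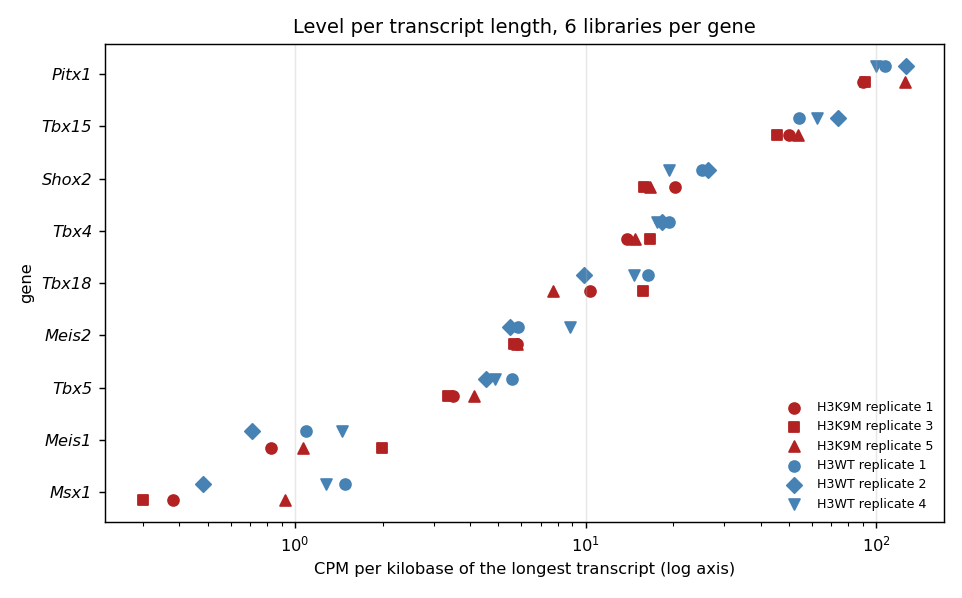
Level of each gene in each of the 6 libraries, as CPM per kilobase of the longest GENCODE M21 transcript on a log axis, with H3K9M libraries in red and H3WT libraries in blue. Pitx1 is highest in every library and no other gene reaches its lowest value of 89.8, while Msx1 spans 0.300 to 1.48.

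The hind limb genes were described first. Pitx1, a paired-type homeobox factor that sets hind limb identity, lies on chromosome 13 (55825051 to 55836192, minus strand, GRCm38). It had 219.99, 224.5 and 306.7 CPM in H3K9M replicates 1, 3 and 5, and 262.1, 310.5 and 244.9 CPM in H3WT replicates 1, 2 and 4. The groups overlapped, with H3K9M replicate 5 and H3WT replicate 2 close together at the top. The log2 fold change of H3K9M over H3WT was -0.12 (SE 0.17, 95% interval -0.51 to 0.26, adjusted p 0.825, from the quasi-likelihood test of edgeR, adjusted over all genes by Benjamini-Hochberg). This interval holds no change as large as 2-fold in either direction. The sign turned to 0.07 without H3K9M replicate 3 and H3WT replicate 2 together.

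Tbx4, the T-box factor expressed in the hind limb bud, lies on chromosome 11 (85886422 to 85916097, plus strand). It had 43.7, 52.5 and 46.7 CPM in H3K9M replicates 1, 3 and 5, and 61.0, 57.8 and 55.4 CPM in H3WT replicates 1, 2 and 4. Every H3K9M library lay below every H3WT library, with a gap of a few CPM between H3K9M replicate 3 and H3WT replicate 4. H3K9M over H3WT gave a log2 fold change of -0.29 (SE 0.13, 95% interval -0.59 to 0.01, p 0.0595 before and 0.426 after adjustment, edgeR), so the difference did not pass the test. Tbx4 varied least of the 9 genes over the libraries, with a coefficient of variation of 12.5%.

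Tbx5, the T-box factor of the fore limb bud, lies on chromosome 5 (119832668 to 119885219, plus strand). Its transcripts were present in these hind limb cells, with 206 to 392 reads per library. It had 13.8, 13.3 and 16.2 CPM in H3K9M replicates 1, 3 and 5, and 22.0, 17.8 and 19.3 CPM in H3WT replicates 1, 2 and 4. The groups did not overlap, H3K9M being the lower. As a log2 fold change this was -0.45 (SE 0.19, 95% interval -0.89 to -0.003, p 0.0488 before and 0.408 after adjustment, edgeR), and it did not pass after adjustment.

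The windows upstream of Tbx4 and Shox2 are shown because these were the genes with the smallest p-values among the 6 of the 9 that the RefSeq promoter table (GRCm38.p6) holds. Pitx1, Tbx5 and Tbx15 have no entry in it. Each window is the 250 bases before the RefSeq start on the gene's own strand, 5′ to 3′, at chr11:85896515-85896764 (plus strand) for Tbx4 and chr3:66981772-66982021 (minus strand) for Shox2. The RefSeq start of Tbx4 lies inside the span that GENCODE gives the gene. Capitals mark matches to TATAAA on either strand.
Tbx4: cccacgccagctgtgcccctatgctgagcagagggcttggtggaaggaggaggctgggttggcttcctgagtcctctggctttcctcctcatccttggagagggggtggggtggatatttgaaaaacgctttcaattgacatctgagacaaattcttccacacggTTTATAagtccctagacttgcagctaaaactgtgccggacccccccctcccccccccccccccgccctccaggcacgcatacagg
Shox2: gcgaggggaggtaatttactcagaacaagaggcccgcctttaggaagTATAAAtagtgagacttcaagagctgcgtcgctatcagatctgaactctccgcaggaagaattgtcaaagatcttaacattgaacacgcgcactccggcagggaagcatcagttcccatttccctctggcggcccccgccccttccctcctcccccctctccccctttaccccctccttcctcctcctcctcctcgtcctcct
The windows were searched on both strands for AGGTGT (a T-box core), TAATCC (a Pitx core), TGACAG (a Meis core), TAATTA (a homeobox palindrome) and TATAAA. Tbx4 held TTTATA, the reverse complement of TATAAA, with its first base 85 bases before the start, and Shox2 held TATAAA 203 bases before it. These matches are descriptions of letters, and TATAAA occurs in 12.4% of the 32851 windows of the table. The other motifs occur in 11.8%, 6.25%, 15.9% and 4.84% of all windows in the order given, and neither window shown here has those letters. Tbx4 has 6 CG pairs in its window and Shox2 11, where the median window has 6.

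Tbx15 and Tbx18 are related T-box factors of limb and girdle mesenchyme. Tbx15 lies on chromosome 3 (99240381 to 99354259, plus strand). It had 178.8, 162.1 and 191.2 CPM in H3K9M replicates 1, 3 and 5, and 193.8, 263.6 and 222.7 CPM in H3WT replicates 1, 2 and 4. All H3K9M values lay below all H3WT values, with H3K9M replicate 5 and H3WT replicate 1 close together and H3WT replicate 2 the highest. On the log2 scale H3K9M differed from H3WT by -0.35 (SE 0.15, 95% interval -0.69 to -0.02, p 0.0402 before and 0.387 after adjustment, edgeR). Without H3WT replicate 2 it was -0.22, and without that library and H3K9M replicate 3 it was -0.16.

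Tbx18 lies on chromosome 9 (87702800 to 87731260, minus strand). It had 48.2, 73.9 and 36.1 CPM in H3K9M replicates 1, 3 and 5, and 76.9, 46.2 and 68.8 CPM in H3WT replicates 1, 2 and 4. The groups overlapped, and the libraries that crossed were H3K9M replicate 3, high in its group, and H3WT replicate 2, low in its group. Tbx18 had a log2 fold change of -0.28 (SE 0.29, 95% interval -0.96 to 0.40, adjusted p 0.751, edgeR). These are the 2 libraries that stood together on the first principal component. Without both, in a fit of 2 libraries against 2 added after the data were seen, the log2 fold change of Tbx18 was -0.78, with p 0.00232 before and 0.0689 after adjustment. It was -0.59 without H3K9M replicate 3 alone and -0.06 without H3K9M replicate 5.

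Shox2, a homeobox factor needed for the proximal limb bones, lies on chromosome 3 (66971727 to 66981771, minus strand). It had 62.4, 48.8 and 51.4 CPM in H3K9M replicates 1, 3 and 5, and 77.4, 80.9 and 59.5 CPM in H3WT replicates 1, 2 and 4. The groups overlapped only through H3K9M replicate 1 and H3WT replicate 4. For Shox2 the log2 fold change was -0.42 (SE 0.16, 95% interval -0.80 to -0.05, p 0.0322 before and 0.367 after adjustment, edgeR), the smallest p of the 9 genes. Shox2 overlaps Rsrc1, a gene on the opposite strand with 796 to 1186 reads per library, and whether the counting used strand is not given in the sources used here. Without H3K9M replicate 3 and H3WT replicate 2 the log2 fold change of Shox2 was -0.26.

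Msx1, a homeobox repressor of undifferentiated mesenchyme, lies on chromosome 5 (37820485 to 37824583, minus strand). It had only 11, 12 and 35 reads in H3K9M replicates 1, 3 and 5, against 51, 18 and 42 reads in H3WT replicates 1, 2 and 4. In CPM these were 0.737, 0.580 and 1.79 against 2.86, 0.934 and 2.47, and the groups overlapped. Msx1 had a log2 fold change of -1.01, and its 95% interval of -2.83 to 0.82 held changes of more than 4-fold on the lower side (SE 0.79, adjusted p 0.648, edgeR). That interval holds both no difference and a 2-fold lower level of Msx1, so it cannot tell these apart.

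The Meis genes encode TALE homeobox factors that bind DNA together with Hox proteins. Meis1 lies on chromosome 11 (18879817 to 19018985, minus strand). It had 6.23, 15.1 and 8.06 CPM in H3K9M replicates 1, 3 and 5, and 8.25, 5.40 and 11.0 CPM in H3WT replicates 1, 2 and 4. The groups overlapped, because H3K9M replicate 3 was the highest of all libraries and H3WT replicate 2 the lowest, while the other H3K9M libraries lay below the other H3WT libraries. The log2 fold change was 0.26 (SE 0.41, 95% interval -0.68 to 1.20, adjusted p 0.852, edgeR), the only positive value among the 9 genes, and it was -0.19 without H3K9M replicate 3 and -0.41 without that library and H3WT replicate 2. The Meis1 transcript is 90% or more identical, over a stretch of 200 bases or longer, to the annotated gene Gm37818, which overlaps it on the same strand, so its count is uncertain to that extent.

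Meis2 lies on chromosome 2 (115863064 to 116065839, minus strand). It had 32.0, 31.2 and 32.0 CPM in H3K9M replicates 1, 3 and 5, and 32.2, 30.2 and 48.7 CPM in H3WT replicates 1, 2 and 4. Of these libraries 5 lay within a narrow band and H3WT replicate 4 stood above them. The log2 fold change was -0.22 (SE 0.20, 95% interval -0.69 to 0.24, adjusted p 0.699, edgeR), and without H3WT replicate 4 it was 0.02.

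Other annotated genes overlap some of these loci. D030062O11Rik overlaps Tbx18 on the opposite strand and shares sequence with it, Gm28760 and Gm47071 overlap Pitx1, and Gm43120 lies opposite Tbx15. Meis1 is overlapped by Gm37818, 2610001A08Rik and 2900018N21Rik on its own strand, and by Gm16140 and Gm16141 on the opposite strand. None of these genes, at Tbx18, Pitx1, Tbx15 or Meis1, has counts under its symbol in the deposited data. Whether their reads were counted under the limb factors is therefore not known. The read counts of Tbx4, Tbx5, Meis2 and Msx1 have no such overlap in GENCODE M21.

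**Figure D2:**
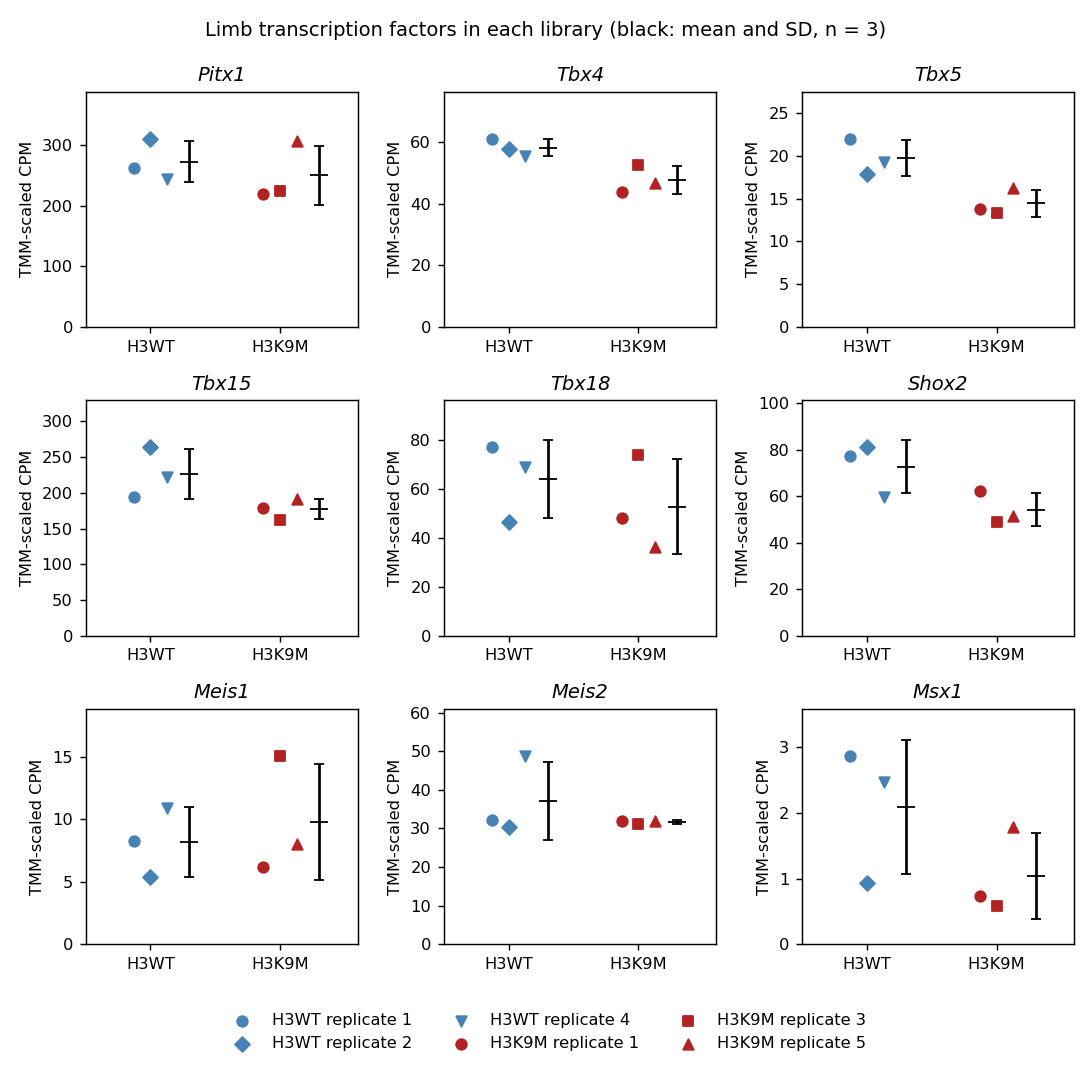
TMM-scaled CPM of each gene by library, with H3WT on the left and H3K9M on the right of each panel, a marker shape for each library, and the group mean and SD (n = 3) in black. The groups separate for Tbx4, Tbx5 and Tbx15 and overlap for the other 6 genes.

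Counted together, 0 of the 9 genes passed an adjusted p of 0.05, where the percentage called over all 13761 tested genes was 0%. Before adjustment 3 genes, Shox2, Tbx15 and Tbx5, had a p under 0.05, all with lower values in H3K9M. Over all tested genes 12.2% reached that p and 5.77% did so with a lower value in H3K9M. The groups did not overlap for 3 of the 9 genes, Tbx4, Tbx5 and Tbx15, again with H3K9M lower, where 8.68% of all tested genes separated in that direction and 19.4% in either. The log2 fold change was negative for 8 of the 9, against 50.4% of all tested genes, and its median was -0.29, against -0.003 for all tested genes. With library size alone as the scaling, 8 of the 9 were still below 0 with a median of -0.22, and the median of all genes moved to 0.05. In that fit 0 of the 9 had an unadjusted p under 0.05, against 12.1% of all tested genes. Without H3K9M replicate 5 the count at that p was also 0, against 10.5% of all tested genes. It was 1 without H3K9M replicate 1 (8.48% of all tested genes), H3WT replicate 1 (8.78%), H3WT replicate 2 (17.1%) or H3WT replicate 4 (9.14%). Without H3K9M replicate 3 it was 2 (9.75%), as without that library and H3WT replicate 2 together (18.4%). In both of those fits the genes were Tbx4 and Tbx18, and Shox2, Tbx15 and Tbx5 had an unadjusted p above 0.05.

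**Figure D3:**
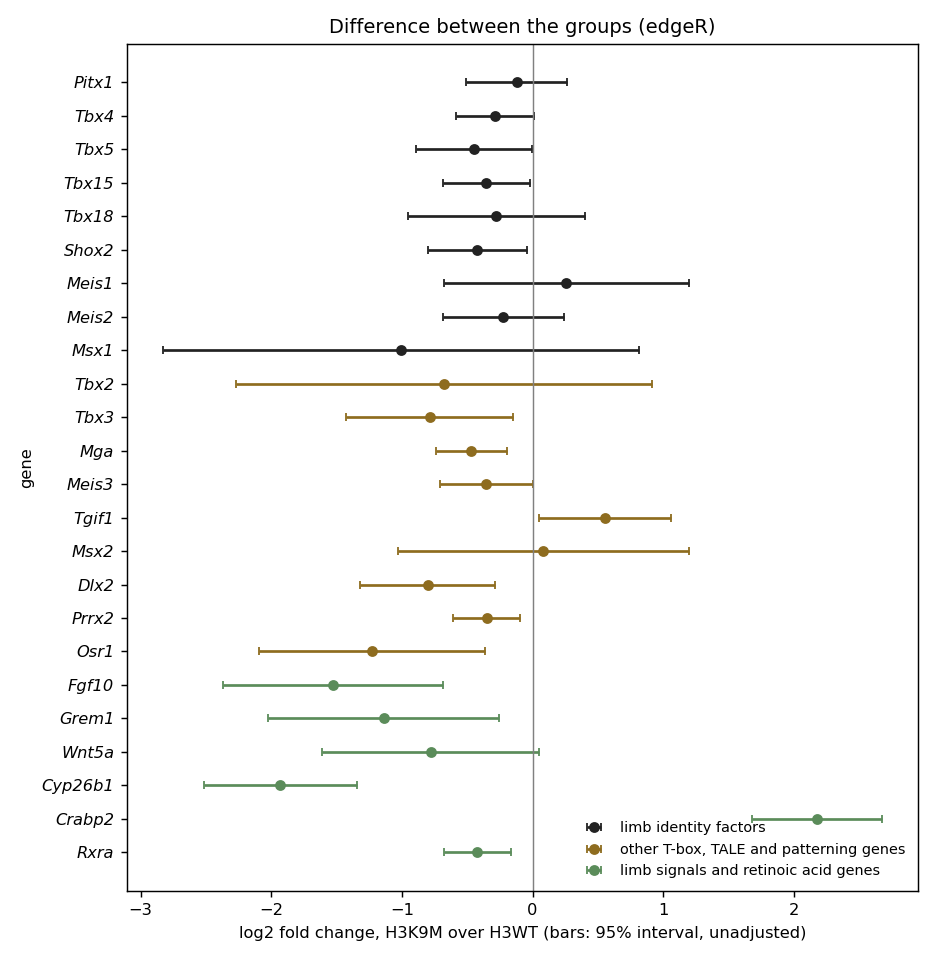
Log2 fold change of H3K9M over H3WT for the 9 limb identity factors and the named genes of related lists, with the unadjusted 95% interval from the edgeR fit. Of the 9, Tbx5, Tbx15 and Shox2 have intervals wholly below 0, and no gene in the plot passed after adjustment.

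Markers of other cells also differed between the libraries. Of 10 skeletal muscle markers 9 had reads, Myf5 being at 0 in every library, and their summed level was 27.6 to 243.0 CPM in H3K9M and 13.2 to 32.3 CPM in H3WT. Myod1, the muscle-determining factor, had 19.5, 57.0 and 4.29 CPM in H3K9M replicates 1, 3 and 5, and 0, 1.04 and 0 CPM in H3WT. The sum in H3K9M replicate 5, 27.6 CPM, lay within the H3WT range. That library still held more Myod1, Des (8.78 against at most 6.80 CPM) and Tnnt3 (5.97 against at most 2.08 CPM) than any H3WT library. Acta1 did not follow, with 5.97 CPM in that library and 26.2, 3.27 and 24.0 CPM in H3WT replicates 1, 2 and 4. It made up most of the summed level in H3WT replicates 1 and 4. The part of muscle markers in the results was not tested. The summed chondrocyte markers were 6096 to 9860 CPM in H3K9M and 6030 to 16855 CPM in H3WT. Most of this was Col2a1, at 4913 to 14110 CPM over the libraries. All 10 tested chondrocyte markers had a negative log2 fold change, against 50.4% of all tested genes. Their median was -1.06, and for 0 of the 10 did the groups separate. The sums were highest in H3WT replicate 2, the library that also had the most Pitx1, Tbx15 and Shox2. Summed fibroblast markers were 12368 CPM in H3K9M replicate 3 and 10163 CPM in H3WT replicate 2, against 24264 to 35973 CPM in the other libraries. The part of chondrocyte or fibroblast markers in the results was not tested. The 3 tendon markers, all with reads, summed to 93.6 to 118.2 CPM in H3K9M and 57.6 to 85.4 CPM in H3WT. Most of this was Scx, at 75.1 to 90.7 against 33.6 to 51.8 CPM. Mkx went the other way, at 7.92 to 9.13 in H3K9M against 9.84 to 13.9 CPM in H3WT, and the groups overlapped for Tnmd. The 4 osteoblast markers, all with a read in some library, summed to 3.78 to 11.1 against 12.9 to 24.9 CPM. Of these, Dmp1 had a positive log2 fold change (0.71), with overlap of the groups. The part of tendon or osteoblast markers in the results was not tested. Endothelial and epithelial markers summed to at most 0.825 and 2.56 CPM in any library, with Cdh5, Emcn and Krt5 at 0 throughout. The 6 macrophage and blood markers, 3 of them (Ptprc, Adgre1 and Hbb-bs) at 0, summed to 6.16 to 15.2 CPM in H3K9M and 3.37 to 4.32 CPM in H3WT. For Cd68 and Csf1r, the markers of this list that were tested, the groups overlapped. The part of macrophage and blood markers in the results was not tested.

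The balance within pairs of related factors was measured as a share of the reads of both, which does not depend on scaling between libraries. Tbx4 took 76.0%, 79.8% and 74.2% of Tbx4 plus Tbx5 reads in H3K9M replicates 1, 3 and 5, against 73.5%, 76.4% and 74.2% in H3WT replicates 1, 2 and 4. The means were 76.7% ± 2.85 and 74.7% ± 1.51 (SD, n = 3 each), and the difference of 1.98 percentage points was within the spread (exact two-sided permutation test p 0.5, where 3 against 3 cannot give less than 0.1). The hind limb paralog thus gave most reads of the pair in all 6 libraries, with 95% Wilson intervals for counting error that ran from 71.2% at the lowest to 81.8% at the highest. Per kilobase of transcript the share was 77.6% to 83.2%.

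Tbx15 took 78.8%, 68.7% and 84.1% of Tbx15 plus Tbx18 reads in H3K9M replicates 1, 3 and 5, against 71.6%, 85.1% and 76.4% in H3WT replicates 1, 2 and 4. The range within each group was wider than the counting intervals, which were at most a few points wide, and the group means of 77.2% ± 7.83 and 77.7% ± 6.84 (SD, n = 3 each) did not differ beyond it (exact permutation p 0.9). Meis1 took 16.3%, 32.6% and 20.1% of Meis1 plus Meis2 reads in H3K9M replicates 1, 3 and 5, against 20.4%, 15.1% and 18.4% in H3WT replicates 1, 2 and 4. H3K9M replicate 3, with a Wilson interval of 29.7% to 35.6%, stood above the other 5 libraries. The group means were 23.0% ± 8.52 and 18.0% ± 2.66 (SD, n = 3 each, exact permutation p 0.5), and the difference of 5.04 points was 0.25 points without H3K9M replicate 3.

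**Figure D4:**
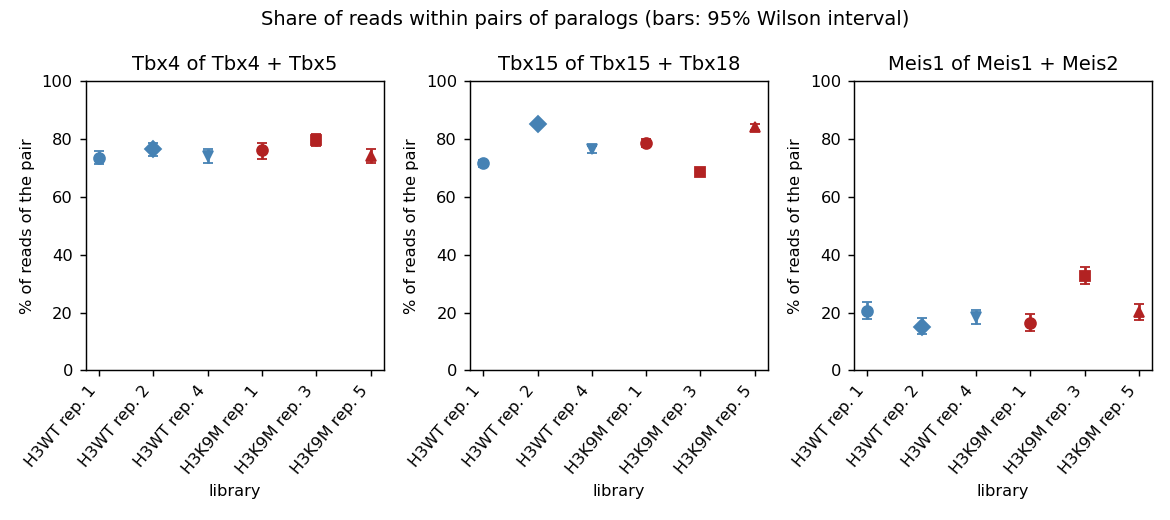
Share of the reads of each pair of paralogs that came from Tbx4, Tbx15 or Meis1, in percent, for each library with its 95% Wilson interval for counting error. Tbx4 stays between 73.5% and 79.8% in all libraries, while Tbx15 ranges from 68.7% to 85.1% and Meis1 reaches 32.6% in H3K9M replicate 3.

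Relatives and partners of these factors were read from lists of other T-box genes, TALE cofactors, further limb patterning factors, limb signals and retinoic acid genes, and 0 genes of these lists passed an adjusted p of 0.05. Of the 13 other T-box genes 3 were tested, and 7 (Tbx10, Tbx19, Tbx20, Tbx21, Tbx22, Tbr1 and Eomes) were at 0 in every library. Mga, a large protein with a T-box that also dimerises with Max, had 80.6 ± 8.19 CPM in H3K9M libraries, against 111.4 ± 3.44 in H3WT (mean and SD, n = 3 each), a log2 difference of -0.47 (SE 0.12; edgeR, adjusted p 0.227). Tbx3, which acts in the posterior limb margin, had 13.3 ± 3.90 in H3K9M against 22.9 ± 5.82 CPM, a log2 difference of -0.79 (SE 0.28; edgeR, adjusted p 0.326). For both genes the groups did not overlap, where 8.68% of all tested genes separated with lower values in H3K9M and 19.4% in either direction. At an unadjusted p under 0.05, 2 of the 3 were lower and 0 higher in H3K9M, against 5.77% and 6.42% of all tested genes. Tbx2 had 2.22 CPM in H3K9M replicate 3 and 2.75 CPM in H3WT replicate 2, and 7.60 to 13.9 CPM in the other 4 libraries, so it was low in the 2 libraries at the high end of the first principal component (log2 fold change -0.68, adjusted p 0.738).

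All 9 TALE cofactors were tested, with a median log2 fold change of -0.001. At an unadjusted p under 0.05, 1 was higher and 2 were lower in H3K9M, against 6.42% and 5.77% of all tested genes. Tgif1, a TALE repressor, had 55.7 ± 15.5 in H3K9M against 37.9 ± 6.59 CPM, a log2 difference of 0.56 (SE 0.22; edgeR, adjusted p 0.38). Meis3, the paralog of Meis1 and Meis2, had 22.3 ± 1.55 against 28.5 ± 1.07 CPM without overlap, a log2 difference of -0.35 (SE 0.15; edgeR, adjusted p 0.41). Of the 9 cofactors, 1 separated with higher and 1 with lower values in H3K9M, against 10.7% and 8.68% of all tested genes.

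Among 39 further limb patterning factors 21 were tested. Of these, 6 had an unadjusted p under 0.05 with lower values in H3K9M and 0 with higher values, against 5.77% and 6.42% of all tested genes, and the median log2 fold change was -0.35. Dlx2, a distal-less homeobox factor, had 9.43 ± 1.36 in H3K9M against 16.5 ± 2.04 CPM, a log2 difference of -0.80 (SE 0.22; edgeR, adjusted p 0.249). Prrx2, a paired-related factor of limb mesenchyme, had 168.5 ± 12.9 against 215.0 ± 2.30 CPM, a log2 difference of -0.35 (SE 0.11; edgeR, adjusted p 0.29). Osr1, an odd-skipped factor of connective tissue, had 24.7 ± 4.26 against 57.9 ± 27.8 CPM with overlap (log2 fold change -1.23, adjusted p 0.28). Msx2, the paralog of Msx1, had 3.87 ± 1.89 against 3.64 ± 0.936 CPM (log2 fold change 0.08, adjusted p 0.965).

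Among 15 limb signals 9 were tested, with a median log2 fold change of -0.68, and Shh, Wnt7a and Fgf4 were at 0 in every library. At an unadjusted p under 0.05, 2 were lower and 0 higher in H3K9M, against 5.77% and 6.42% of all tested genes. Fgf10, the mesenchymal growth factor that Tbx4 and Tbx5 are known to activate in limb buds, had 2.81, 5.02 and 7.75 CPM in H3K9M replicates 1, 3 and 5. In H3WT replicates 1, 2 and 4 it had 15.8, 15.2 and 14.3 CPM. The groups did not overlap (log2 fold change -1.53, SE 0.37, p 0.00296 before and 0.216 after adjustment, edgeR). Grem1, an inhibitor of bone morphogenetic proteins, had 46.0 ± 24.4 in H3K9M against 101.5 ± 25.8 CPM, a log2 difference of -1.14 (SE 0.37; edgeR, adjusted p 0.312), also without overlap. Of the 9 tested signals, 3 separated with lower and 0 with higher values in H3K9M, against 8.68% and 10.7% of all tested genes. Wnt5a, a Wnt ligand of limb outgrowth, had 39.3 ± 16.6 against 67.3 ± 20.99 CPM (log2 fold change -0.78, adjusted p 0.432).

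Of 19 retinoic acid genes 13 were tested. At an unadjusted p under 0.05, 2 were higher and 2 lower in H3K9M, against 6.42% and 5.77% of all tested genes. Crabp2, which carries retinoic acid to its receptors, had 80.7 to 130.6 CPM in H3K9M and 19.1 to 22.8 CPM in H3WT, and Cyp26b1, which breaks retinoic acid down, had 24.6 to 37.3 against 89.0 to 146.7 CPM (adjusted p 0.0987 and 0.147, edgeR). Rxra, a retinoid receptor subunit, had 126.6 ± 9.84 in H3K9M against 169.6 ± 6.14 CPM (mean and SD, n = 3 each), a log2 difference of -0.42 (edgeR, adjusted p 0.239). For these 3 genes, which had the smallest p-values of the list, the groups did not overlap. Of the 13 tested genes of the list, 2 separated with higher and 2 with lower values in H3K9M. Over all tested genes 19.4% separated in either direction.

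The 9 genes differed in how their variation fell over the 6 libraries. Relative to its own mean over the libraries, on the log2 scale, Tbx18 was at 0.39 in H3K9M replicate 3 and at 0.45 and 0.29 in H3WT replicates 1 and 4. It was at -0.22 and -0.64 in H3K9M replicates 1 and 5 and at -0.28 in H3WT replicate 2. Meis1 ranged from 0.82 in H3K9M replicate 3 to -0.64 in H3WT replicate 2, libraries that the first principal component placed together. Tbx5 and Msx1 were both highest in H3WT replicate 1, at 0.39 and 1.05, and lowest in H3K9M replicate 3, at -0.34 and -1.06. They had opposite signs in H3WT replicate 2 (0.09 and -0.46) and H3K9M replicate 5 (-0.05 and 0.40). The range of a gene over all libraries was 1.40-fold for Tbx4 and 1.41-fold for Pitx1, 2.13-fold for Tbx18, 2.79-fold for Meis1 and 4.94-fold for Msx1.

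**Figure D5:**
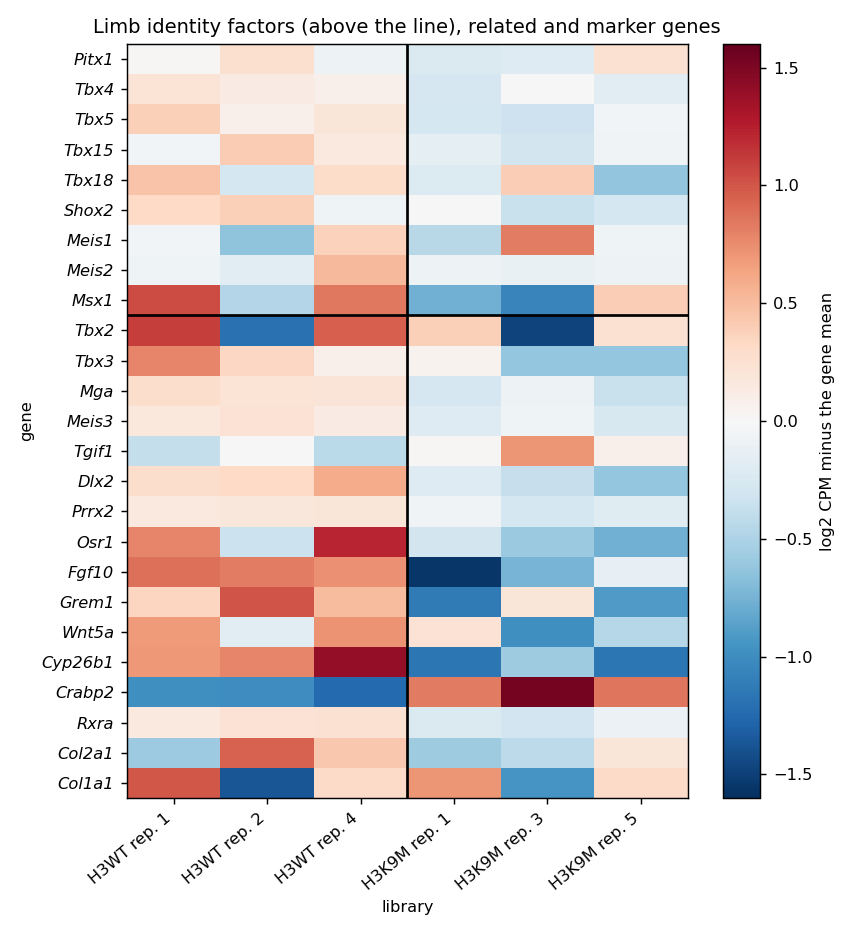
Log2 CPM of each gene minus its mean over the 6 libraries, with the 9 limb identity factors above the horizontal line and named relatives and 2 collagen markers under it, and H3WT libraries left of the vertical line. Tbx4 and Tbx5 are blue or pale in all H3K9M libraries, whereas Tbx18 and Meis1 are red in H3K9M replicate 3 (0.39 and 0.82).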

How the data were processed

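The table the authors deposited holds raw counts, shown by whole numbers with a different sum in each library. HISAT2, featureCounts, DESeq2 and the build mm10 are named in the submitters' processing notes. Versions, gene annotation and strandedness are not given in the sources used here. Libraries were made from polyadenylated RNA with a Tecan mRNA kit, per the labels' protocols. Columns were matched to samples by title, and 0 columns belonged to other samples.

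Counts were fitted in R 4.3.3 with edgeR 4.0.16: filterByExpr with defaults, TMM scaling, and glmQLFit with robust estimation and glmQLFTest on genotype over all 6 libraries, with Benjamini-Hochberg adjustment over 13761 genes (threshold 0.05). The SE is the log2 fold change divided by the square root of F, and the 95% interval is unadjusted. The computation was tested on simulated counts. Log2 CPM has a prior count of 2. Lengths and coordinates are from GENCODE M21 (GRCm38, the build named as mm10), promoters from RefSeq GRCm38.p6, and similar transcripts were found with blastn 2.17.0. Wilson intervals cover counting error only.

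The 9 genes, the lists and the tests were chosen with earlier results of these data known. From each list the 3 genes with the smallest p were named, since none passed, with Msx2, Tbx2, Tbx3, Crabp2 and Cyp26b1. Some genes that this rule names are not reported here. Alternatives were DESeq2 1.42.0, limma-voom (limma 3.58.1), DESeq2's size factors, library size alone, other filters (every gene with a count, or at least 10 counts in every library), no robust estimation, leaving out each library and, added after the data were seen, leaving out 2 libraries together.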

Additional observations from a re-analysis of the deposited data

How the results depend on the processing

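No paired analysis was possible because the groups share only replicate number 1. No gene of the 9 passed an adjusted p of 0.05 under any alternative run, and their lowest adjusted p was 0.0689, for Tbx18 without H3K9M replicate 3 and H3WT replicate 2. Under the other scalings, filters and tests with all libraries every one of the 9 kept its sign. Leaving out H3K9M replicate 3 and H3WT replicate 2 together turned Pitx1 to 0.067 and Meis1 to -0.41, in log2 fold change. Over the fits that left out 1 library, Pitx1 ran from -0.28 to -0.01, Tbx4 from -0.35 to -0.23, Tbx5 from -0.53 to -0.36, Tbx15 from -0.46 to -0.22, Tbx18 from -0.59 to -0.06, Shox2 from -0.55 to -0.33 and Msx1 from -1.65 to -0.71. Meis1 ran from -0.19 (without H3K9M replicate 3) to 0.52, and Meis2 from -0.34 to 0.024 (without H3WT replicate 4). The difference in the Tbx15 share, -0.51 points, ran from -3.97 to 3.74 points, being positive without H3K9M replicate 3 (3.74) or H3WT replicate 2 (3.19). The Tbx4 share ran from 0.415 to 3.21 points and the Meis1 share from 0.25 to 8.39 points. The count of called genes over the whole table, 0, was 36 with every gene that had a count, 367 with the DESeq2 Wald test and 302 without both libraries, and ran from 0 to 91 when 1 library was left out (91 without H3WT replicate 2, 2 without H3K9M replicate 3). The cause was not tested.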

Other observations

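A list of factors known from the axial and craniofacial skeleton was also read, of which 5 of 7 were tested and Uncx was at 0 in every library. Nkx3-2, a homeobox factor of vertebral and jaw cartilage that represses chondrocyte maturation, had 0.804, 1.40 and 0.816 CPM in H3K9M replicates 1, 3 and 5, and 5.17, 6.80 and 3.95 CPM in H3WT replicates 1, 2 and 4, a log2 difference of -2.38 (SE 0.50; edgeR, adjusted p 0.194). Pax1, a paired-box factor of the ventral vertebral column and the shoulder girdle, had 5.02, 2.42 and 3.88 CPM in H3K9M and 1.18, 0.830 and 2.00 CPM in H3WT, a log2 difference of 1.49 (SE 0.58; edgeR, adjusted p 0.371). In both genes the groups did not overlap, in opposite directions, and neither passed the test. For Pax9, Foxc2 and Meox1, the other tested genes of the list, the groups overlapped. Over all tested genes 10.7% separated with higher and 8.68% with lower values in H3K9M. Nkx3-2 and Pax1 were chosen from the list after their values were seen.

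The genes whose log2 CPM followed each factor most closely over the 6 libraries were found among all tested genes with a mean of at least 1 CPM, as a description with no test, since all tested genes were compared over few libraries. They were Ets2 for Pitx1 (Pearson's r 0.981), Fes for Tbx4 (0.987), Cacna1d for Tbx5 (0.994), Selo for Tbx15 (0.993), Sh3yl1 for Tbx18 (0.994), Aarsd1 for Shox2 (0.993), Mau2 for Meis1 (0.982), Crocc for Meis2 (0.99) and Mta1 for Msx1 (0.993). Cacna1d had 0, 0 and 0.36 CPM in H3K9M replicates 1, 3 and 5, so its likeness to Tbx5 rests on values at or near 0.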
